A study of Homo sapiens with 2 samples.

Results

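The dual-specificity MAP kinase phosphatases examined here are 10 genes, DUSP1, DUSP2, DUSP4, DUSP5, DUSP6, DUSP7, DUSP8, DUSP10, DUSP14 and DUSP16. They were chosen by symbol, as family members that act on the kinases ERK, JNK and p38, and each was found by its Entrez gene ID among the 23033 genes with a value. Their mRNA was compared between control cells, labelled WT, and FZR1 ko cells, in which FZR1, a co-activator of the ubiquitin ligase APC/C, was knocked out by CRISPR/Cas9. Both are labelled as T-47D, a luminal breast cancer line, a label that the marker genes below go against in part, and both received cisplatin, a DNA crosslinking drug, at 2 μg/mL for a time that is not given in the sources used here. The FZR1 ko line was derived from a single cell, so it is 1 clone. Each condition has 1 library, so no difference below has a replicate error or a test, and a clone, a culture or a library effect cannot be told apart from the knockout. Untreated cells were not analysed here.

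MAP kinases are switched on when an upstream kinase phosphorylates a threonine and a tyrosine in their activation loop. The dual-specificity phosphatases remove both phosphates and switch the kinase off. Several of these phosphatase genes are themselves transcribed when the kinases are active, which makes them negative feedback regulators and makes their mRNA a common readout of pathway activity. DUSP1, DUSP2, DUSP4 and DUSP5 encode inducible nuclear enzymes, DUSP6 and DUSP7 encode cytoplasmic enzymes that prefer ERK, and DUSP8, DUSP10 and DUSP16 encode enzymes that prefer JNK and p38. DUSP14 encodes a small atypical enzyme that lacks the kinase-binding domain of the others.

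Values are FPKM, the fragments of a gene scaled to transcript length and to the mapped fragments of the library, as deposited. Sums over all genes were 502589 FPKM in control against 500488 FPKM in FZR1 ko. FPKM holds no read counts, so the depth behind a value is unknown. Of 244 short RNA genes, 46 shared an FZR1 ko to control ratio near 0.978. If these genes held the same number of reads in both libraries, which was not checked, the FZR1 ko library held about 1.02 times the reads of the control library. FZR1 mRNA was 12.3 FPKM in control against 10.1 FPKM in FZR1 ko, a level that does not check the labels, because small insertions or deletions can leave an mRNA in place. Of 8 markers of T-47D, 5 (ESR1, PGR, GATA3, CDH1 and KRT19) were under 1 FPKM in both libraries. The other 3 were detected, FOXA1 at 5.07 and 4.65 FPKM, KRT8 at 829 and 998 FPKM and KRT18 at 552 and 740 FPKM in control and FZR1 ko. Of 6 mesenchymal or basal markers, VIM (315 and 295 FPKM), CDH2 (2.97 and 15.3 FPKM) and ZEB1 (2.82 and 4.45 FPKM) were detected in both libraries, while SPARC, KRT5 and KRT14 were under 1 FPKM in both. The hormone receptors that define the labelled line, ESR1 and PGR, were at or near 0 in both, so the line is named here by its label only. In a bulk library a lower level in every cell and fewer cells with the mRNA cannot be told apart.

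The sequence before each gene start was read from RefSeq (GRCh38.p14), since feedback transcription of these genes acts through their promoters. Promoters were matched for 8 of the 10 genes, all but DUSP4 and DUSP5. The 250 bases before the transcript start are shown for DUSP1, the member with the highest level, for DUSP6 and DUSP10, the members with the largest differences, and for DUSP16, the only member that was higher in FZR1 ko. All 4 genes lie on the minus strand, and each window is written 5′ to 3′ on that strand, at chr5:172771196-172771445, chr12:89352502-89352751, chr1:221742090-221742339 and chr12:12562864-12563113, in that order. Capitals mark matches to the motifs searched.
DUSP1: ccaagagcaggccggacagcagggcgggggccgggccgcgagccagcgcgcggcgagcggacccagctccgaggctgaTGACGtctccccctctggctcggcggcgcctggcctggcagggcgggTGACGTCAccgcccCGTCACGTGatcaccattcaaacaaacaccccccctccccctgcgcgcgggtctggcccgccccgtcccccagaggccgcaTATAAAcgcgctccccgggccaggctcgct
DUSP6: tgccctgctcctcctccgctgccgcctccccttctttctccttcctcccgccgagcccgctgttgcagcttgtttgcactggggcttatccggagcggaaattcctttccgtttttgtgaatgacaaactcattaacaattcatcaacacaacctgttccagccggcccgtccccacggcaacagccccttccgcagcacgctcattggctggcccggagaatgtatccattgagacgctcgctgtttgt
DUSP10: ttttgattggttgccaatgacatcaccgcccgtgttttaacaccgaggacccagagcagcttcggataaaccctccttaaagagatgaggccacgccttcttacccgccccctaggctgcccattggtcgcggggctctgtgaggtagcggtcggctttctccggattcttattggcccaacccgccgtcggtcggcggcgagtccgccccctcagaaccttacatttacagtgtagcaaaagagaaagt
DUSP16: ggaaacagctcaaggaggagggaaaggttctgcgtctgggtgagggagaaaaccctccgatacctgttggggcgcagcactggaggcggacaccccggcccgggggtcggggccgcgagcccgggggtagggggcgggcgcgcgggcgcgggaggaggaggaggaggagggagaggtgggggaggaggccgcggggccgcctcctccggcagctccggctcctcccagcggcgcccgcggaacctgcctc

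Motifs were searched on both strands of these windows and counted in all 27305 RefSeq promoters of the same length. DUSP1 held the cyclic AMP response element (CRE, TGACGTCA) from position -125 to -118, counted back from the transcript start, with 2 further copies of its core (TGACG) at -172 to -168 and at -111 to -107. The last of these overlaps an E-box (CACGTG) at -108 to -103, and a TATA box (TATAAA) lay at -30 to -25. DUSP8 held the full CRE at -118 to -111 and again at -74 to -67. The full CRE occurs in 1.77% of all promoters and the core, which every full CRE contains, in 21.7%, and in 3.02% and 30.4% of the 10354 promoters of genes that reached 1 FPKM in either library. An E-box was also found in DUSP2, at -113 to -108, and occurs in 6.49% of promoters (8.94% of those 10354), while the TATA box occurs in 11.1% (5.50%). DUSP7 held a match to the p53 decamer at -195 to -186 and to the NF-kB site at -158 to -149, motifs found in 5.53% and 9.57% of promoters (4.47% and 11.6%). None of the 8 windows held an AP-1 site (TGANTCA, 6.60% of promoters and 3.96% of those 10354), the ETS core (CCGGAAG, 8.82% and 16.5%) or a CArG box (1.14% and 0.927%), and DUSP6, DUSP10, DUSP14 and DUSP16 held none of the motifs searched. For DUSP8 and DUSP14 the start in that table lies inside the annotated gene, so a longer transcript may begin further upstream. A match describes the letters only.

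**Figure D1:**
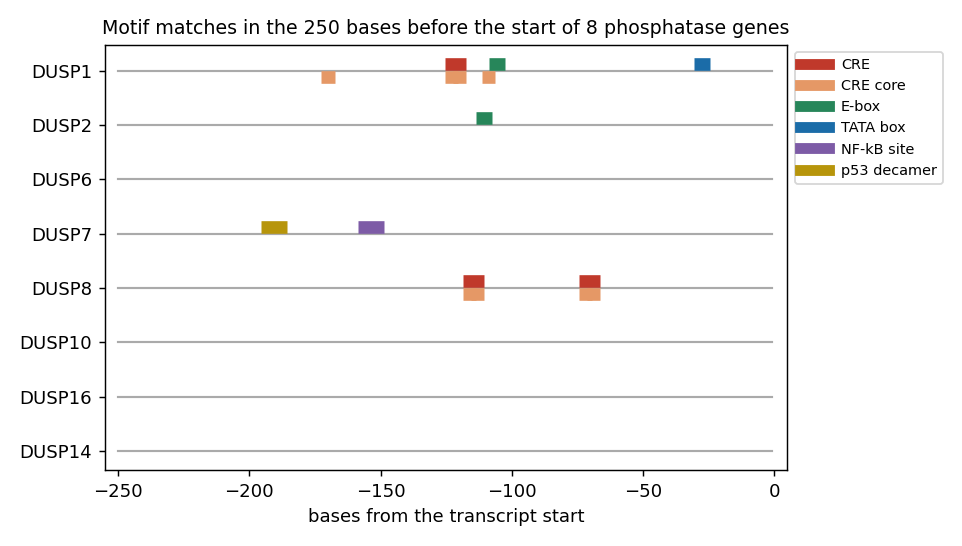
Motif matches in the 250 bases before the transcript start of the 8 phosphatase genes with a RefSeq promoter, plotted by distance from the start in bases. DUSP1 and DUSP8 carry the CRE matches, at -125 to -118 and at -118 to -111 and -74 to -67, and the lines of DUSP6, DUSP10, DUSP14 and DUSP16 are empty.

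Differences are log2 ratios of FZR1 ko over control after 1 FPKM was added to both values, a scale that understates differences of low genes. The background is the 13554 genes that reached 1 FPKM in either library. All 10 phosphatase genes were among them, and each was above 2 FPKM in both libraries. Of the 10, 9 were lower in FZR1 ko and 1, DUSP16, was higher, beside 50.3% of all genes kept that were lower. Only 2 of the 10 differed at least 2-fold, beside 13.5% of all genes kept. Both, DUSP6 and DUSP10, were lower in FZR1 ko, beside 6.72% of all genes kept that were at least 2-fold lower, and none was at least 2-fold higher, beside 6.78%. At 1.5-fold, DUSP7 joined them, giving 3 of 10 beside 17.6% of all genes kept. The median log2 ratio of the 10 genes was -0.48, against -0.0048 over all genes kept. Most of the members were thus lower by modest amounts, and the large differences were held by 2 genes of different kinase preference.

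**Figure D2:**
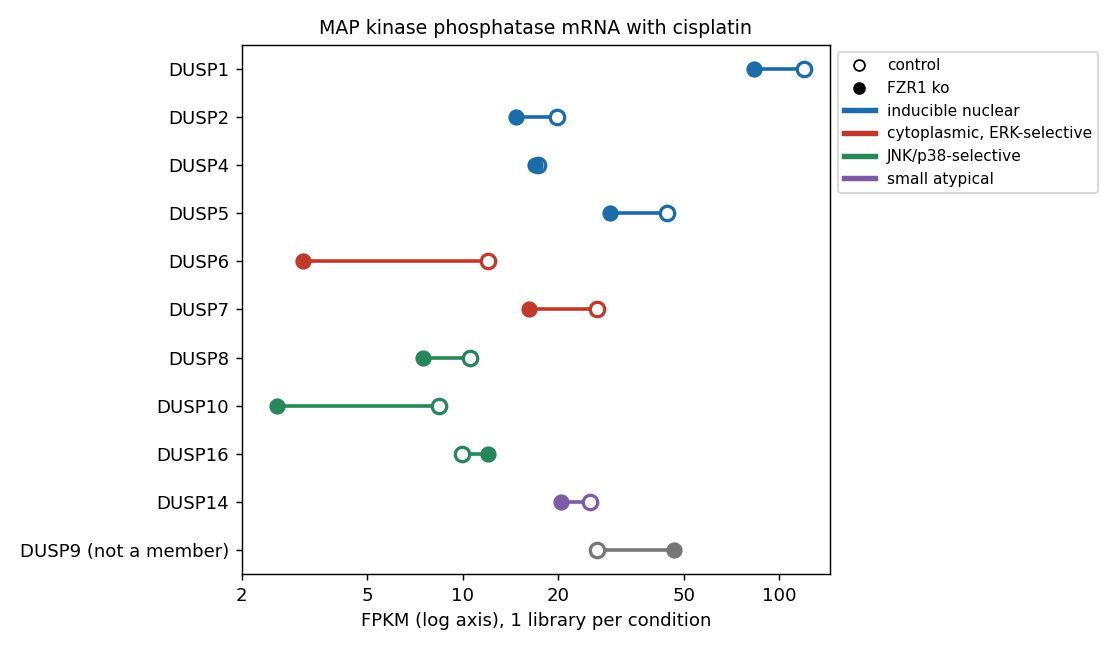
FPKM of each phosphatase gene on a log axis, with open circles for control and filled circles for FZR1 ko, 1 library each, and DUSP9 added for comparison. The longest lines are those of DUSP6, from 12.0 to 3.13 FPKM, and DUSP10, from 8.41 to 2.58 FPKM, and the filled circle lies to the right only for DUSP16 and DUSP9.

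Among the inducible nuclear enzymes, DUSP1 (MKP-1), an immediate early gene whose product inactivates p38, JNK and ERK, had by far the highest level. It was at 120.1 FPKM in control against 83.5 FPKM in FZR1 ko (log2 ratio -0.52). DUSP5, which acts on ERK in the nucleus, was at 44.4 FPKM in control against 29.3 FPKM in FZR1 ko (log2 ratio -0.58). These members had the highest and the next highest FPKM of the 10 in both libraries, and the ratio of DUSP1 to DUSP5 was 2.71 in control and 2.85 in FZR1 ko. DUSP2 (PAC1), best known from activated lymphocytes, was at 19.9 and 14.7 FPKM (log2 ratio -0.41). DUSP4 (MKP-2), the closest relative of DUSP1 in this group, was at 17.3 FPKM in control against 17.0 FPKM in FZR1 ko (log2 ratio -0.03). All 4 nuclear genes were lower in FZR1 ko, DUSP4 only slightly, beside 50.3% of all genes kept that were lower. None reached 2-fold, beside 13.5% of all genes kept in either direction, and the log2 ratios ran from -0.58 to -0.03. DUSP1 was 6.94 times the FPKM of DUSP4 in control and 4.92 times in FZR1 ko.

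Of the cytoplasmic enzymes, DUSP6 (MKP-3), the feedback phosphatase most specific for ERK, had the largest difference of all members. It was at 12.0 FPKM in control against 3.13 FPKM in FZR1 ko (log2 ratio -1.65), and 1.38% of all genes kept had a lower ratio. DUSP7 (PYST2), its close relative, was at 26.5 FPKM in control against 16.2 FPKM in FZR1 ko (log2 ratio -0.68), with 14.1% of genes kept below it. The ratio of DUSP6 to DUSP7 was 0.452 in control and 0.193 in FZR1 ko, so the pair did not keep its proportion. DUSP9 (MKP-4), the remaining cytoplasmic ERK phosphatase and not a member of the list, was higher in FZR1 ko, at 26.55 FPKM in control against 46.5 FPKM in FZR1 ko (log2 ratio 0.79). Summed over DUSP6 and DUSP7, the level was 38.5 FPKM in control against 19.3 FPKM in FZR1 ko, and with DUSP9 it was 65.1 and 65.8 FPKM. The order in control was DUSP9 and DUSP7 at nearly equal levels and then DUSP6, whereas in FZR1 ko DUSP9 was far above DUSP7 and DUSP6 was lowest.

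Among the phosphatases that prefer JNK and p38, DUSP10 (MKP-5) had the second large difference. It was at 8.41 FPKM in control against 2.58 FPKM in FZR1 ko (log2 ratio -1.39), and 2.51% of genes kept had a lower ratio. With 5 FPKM added in place of 1, its log2 ratio was -0.82, short of 2-fold. DUSP8 (hVH5) was at 10.6 and 7.49 FPKM (log2 ratio -0.45). DUSP16 (MKP-7), a JNK phosphatase that shuttles between nucleus and cytoplasm, was at 9.97 FPKM in control against 12.0 FPKM in FZR1 ko (log2 ratio 0.25, or 0.06 after correction for GC content and length). In control these genes lay between 8.41 and 10.6 FPKM, whereas in FZR1 ko they ranged from 2.58 to 12.0 FPKM. The ratio of DUSP10 to DUSP16 was 0.844 in control and 0.214 in FZR1 ko. DUSP14 (MKP-6), the small atypical enzyme, was at 25.25 and 20.5 FPKM (log2 ratio -0.29).

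**Figure D3:**
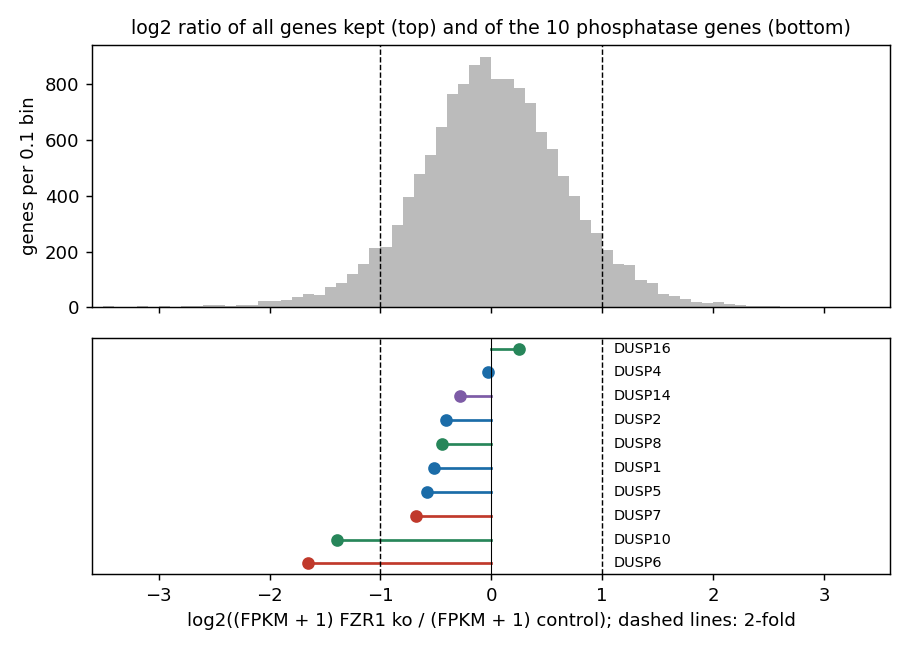
Top, histogram of the log2 ratio of the 13554 genes kept, in bins of 0.1, with values beyond the axis gathered in the end bins. Bottom, the ratio of each phosphatase gene, coloured by role (blue nuclear, red cytoplasmic, green JNK and p38, purple atypical), with dashed lines at 2-fold, where DUSP6 (-1.65) and DUSP10 (-1.39) lie beyond the left line and the other 8 lie between the lines.

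Summed over the 10 genes, phosphatase mRNA was 294 FPKM in control against 207 FPKM in FZR1 ko, a ratio of 0.701. DUSP1 alone made up 40.8% of this sum in control against 40.5% in FZR1 ko. Without DUSP1 the ratio of the sums was 0.705, so the lower total was not carried by that gene alone. The nuclear genes held 68.5% in control against 70% in FZR1 ko, and the genes that prefer JNK and p38 held 9.84% against 10.7%. DUSP6 and DUSP7 together held 13.1% in control and 9.36% in FZR1 ko, the one role group whose sum was close to 2-fold lower, with a ratio of 0.502. DUSP6 with its 3.83-fold lower FPKM and DUSP10 with its 3.26-fold lower FPKM were small parts of the total, at 4.07% and 2.86% of the sum in control.

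**Figure D4:**
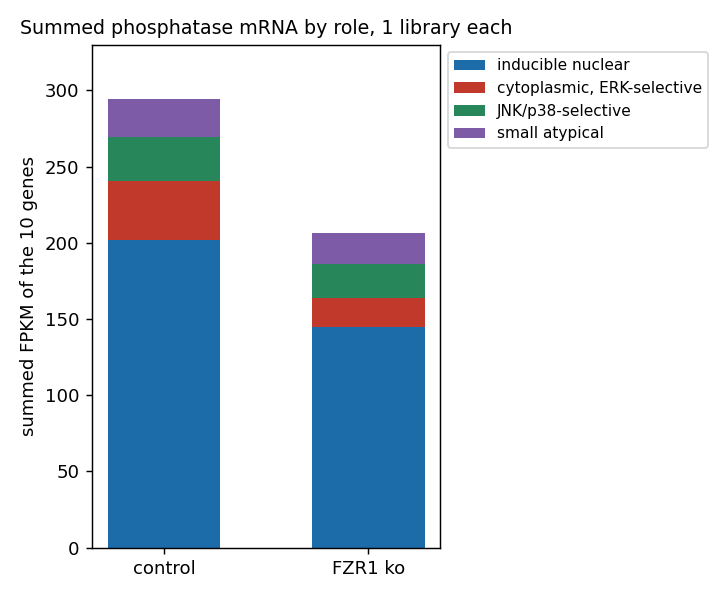
Stacked bars of the summed FPKM of the 10 phosphatase genes in each library, starting at 0 and divided by role, with 1 library per bar. The total is 294 FPKM in control against 207 FPKM in FZR1 ko, and the cytoplasmic, ERK-selective part (DUSP6 and DUSP7, without DUSP9) goes from 38.5 to 19.3 FPKM.

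The genes differ widely in size and structure. In the RefSeq annotation of GRCh38.p14, DUSP2 (chromosome 2, 96143169 to 96145440) spans 2.27 kb and DUSP1 (chromosome 5, 172768096 to 172771195) spans 3.10 kb, compact genes of 4 exons each in GENCODE 44. DUSP6 (chromosome 12, 89347235 to 89352501) spans 5.27 kb with 3 exons and encodes 381 amino acids, and DUSP7 (chromosome 3, 52048919 to 52056571) spans 7.65 kb with 3 exons and encodes 419 amino acids. DUSP10 (chromosome 1, 221701424 to 221742089) spans 40.7 kb with 4 exons, and DUSP16 (chromosome 12, 12473282 to 12562863) spans 89.6 kb with 7 exons and encodes 665 amino acids, the longest of the 10. DUSP5 (chromosome 10, 110497907 to 110511533) and DUSP4 (chromosome 8, 29333064 to 29350684) span 13.6 and 17.6 kb with 4 exons each. DUSP8 (chromosome 11, 1554051 to 1572848) spans 18.8 kb, and DUSP14 (chromosome 17, 37488566 to 37513498) spans 24.9 kb and encodes 198 amino acids, the shortest. The large differences thus fell on a compact gene, DUSP6, and a long one, DUSP10. DUSP6 overlaps the readthrough gene POC1B-DUSP6, and DUSP8 overlaps KRTAP5-AS1, which was at 0.47 and 0.13 FPKM. DUSP7 overlaps LOC124906238 and DUSP8 also overlaps LOC124902608, neither with a value used here. Reads in these overlaps of DUSP6, DUSP7 and DUSP8 are uncertain. DUSP5P1, a DUSP5 pseudogene whose reads may be shared with DUSP5, was at 1.89 FPKM in control against 1.84 FPKM in FZR1 ko, far below DUSP5.

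The rest of the DUSP family went both ways. Of 17 other family genes with a value, 6 were under 1 FPKM in both libraries. The 11 kept had a median log2 ratio of -0.18, with 7 lower in FZR1 ko and 4 higher, beside 50.3% and 49.6% of all genes kept, and without the filter on low values the median was 0. None was at least 2-fold lower, beside 6.72% of all genes kept that were 2-fold lower and 6.78% that were 2-fold higher, and DUSP15, which reached 1 FPKM in FZR1 ko only, was at least 2-fold higher, at 0.38 FPKM in control against 2.98 FPKM in FZR1 ko (log2 ratio 1.53). DUSP12, the highest of them in control, was at 51.35 and 35.25 FPKM (log2 ratio -0.53). Other phosphatases of MAP kinases were described beside them. Of 8 such genes, 6 were kept, with a median of -0.25, 5 lower and 1 higher, beside the same shares, and that median ranged from -0.38 to -0.15 over the alternatives. PPP2CB, a catalytic subunit of PP2A, was the 1 gene of the 6 at least 2-fold lower, at 61.2 and 28.95 FPKM (log2 ratio -1.05), while PPP2CA, the other catalytic subunit, was at 103 and 78.3 FPKM (-0.38).

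The kinases on which the phosphatases act had a median near that of all genes. Of 10 MAP kinases, 9 were kept, 5 lower and 4 higher in FZR1 ko, beside 50.3% and 49.6% of all genes kept, with a median log2 ratio of -0.03. None was at least 2-fold apart, beside 13.5% of all genes kept. MAPK3 (ERK1), the highest in control, was at 25.2 and 20.5 FPKM (-0.29), and MAPK7 (ERK5) was at 21.6 and 11.1 FPKM (-0.90). Of the kinases that activate them, 7 MAP2 kinases, 6 were higher, beside 49.6% of all genes kept that were higher, with a median of 0.62. At least 2-fold higher were 2 of the 7, beside 6.78% of all genes kept. MAP2K6 (MKK6), an activator of p38, was at 3.15 FPKM in control against 14.6 FPKM in FZR1 ko (log2 ratio 1.91), and MAP2K5, the activator of ERK5, was at 0.50 and 2.99 FPKM (1.41). MAP2K5 reached 1 FPKM in FZR1 ko only, so it passed the filter through the library where it is high, and with at least 1 FPKM required in both libraries it drops out and the median of the list is 0.55. MAP2K2 (MEK2), which phosphorylates ERK and was the highest of them, was at 53.7 and 97.1 FPKM (0.84).

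Further upstream the direction was mixed. In the RAS-RAF module that leads to ERK, 6 of 10 genes were higher and 4 lower in FZR1 ko, beside 49.6% and 50.3% of all genes kept, with a median of 0.26. None was at least 2-fold apart, beside 13.5% of all genes kept. SHC1, an adaptor of receptor tyrosine kinases and the highest of them, was at 176 and 116 FPKM (-0.59). Of 16 MAP3 kinases of the stress pathways, 10 were higher and 6 lower, beside 49.6% and 50.3% of all genes kept, with a median of 0.21, or 0.08 after correction for GC content and length. At least 2-fold apart was 1 gene in each direction, beside 6.78% of all genes kept that were higher and 6.72% that were lower by that much. MAP3K5 (ASK1) was at least 2-fold higher, at 1.01 and 3.22 FPKM (1.07), TAOK2 was at least 2-fold lower, at 55.9 and 23.8 FPKM (-1.20), and MAP3K11, the highest, was at 64.9 and 55.6 FPKM (-0.22). Among 11 kinases activated by MAP kinases, 9 were kept and 8 of these were higher, beside 49.6% of all genes kept, with a median of 0.40. None was at least 2-fold apart, beside 13.5% of all genes kept. RPS6KA5, 1 of the 8, reached 1 FPKM in FZR1 ko only (0.79 and 1.04 FPKM), and with at least 1 FPKM in both libraries 7 of 8 were higher. The median was 0.19 without the filter on low values and 0.23 with the GC and length trend removed. MAPKAPK3, a p38 target kinase and the highest in FZR1 ko, was at 24.5 and 44.8 FPKM (0.85).

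Transcripts usually read as output of ERK signalling, a list chosen with earlier results of these data known, were described beside DUSP6. Of 8 such genes without phosphatases, 7 were kept and all 7 were lower in FZR1 ko, with a median log2 ratio of -0.84, beside 50.3% of all genes kept that were lower. The 3 that were at least 2-fold lower, beside 6.72% of all genes kept, were SPRY4, at 14.6 FPKM in control against 1.83 FPKM in FZR1 ko (-2.46), and the ETS factors ETV5, at 9.74 and 3.43 FPKM (-1.28), and ETV4, at 21.0 and 8.73 FPKM (-1.18). EPHA2, the highest in control, was at 77.85 and 61.65 FPKM (-0.33), and CCND1 (cyclin D1), the highest in FZR1 ko, was at 71.7 and 68.5 FPKM (-0.07). The Sprouty and SPRED genes, the other feedback inhibitors of the RAS-ERK pathway, share SPRY2 and SPRY4 with that list. Of 7, 4 were kept, 3 lower and 1 higher, beside 50.3% and 49.6% of all genes kept. Their median of -0.92 ranged from -1.41 with a pseudocount of 0.1 FPKM to -0.30 without the filter on low values. At least 2-fold lower were 2 of the 4, SPRED3 and SPRY4, the latter already counted above, beside 6.72% of all genes kept. SPRED3, which reached 1 FPKM in control only, was at 2.63 and 0.49 FPKM (-1.28), and without it the median was -0.56. No protein or phosphorylation of these kinases was measured in the values used here.

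**Figure D5:**
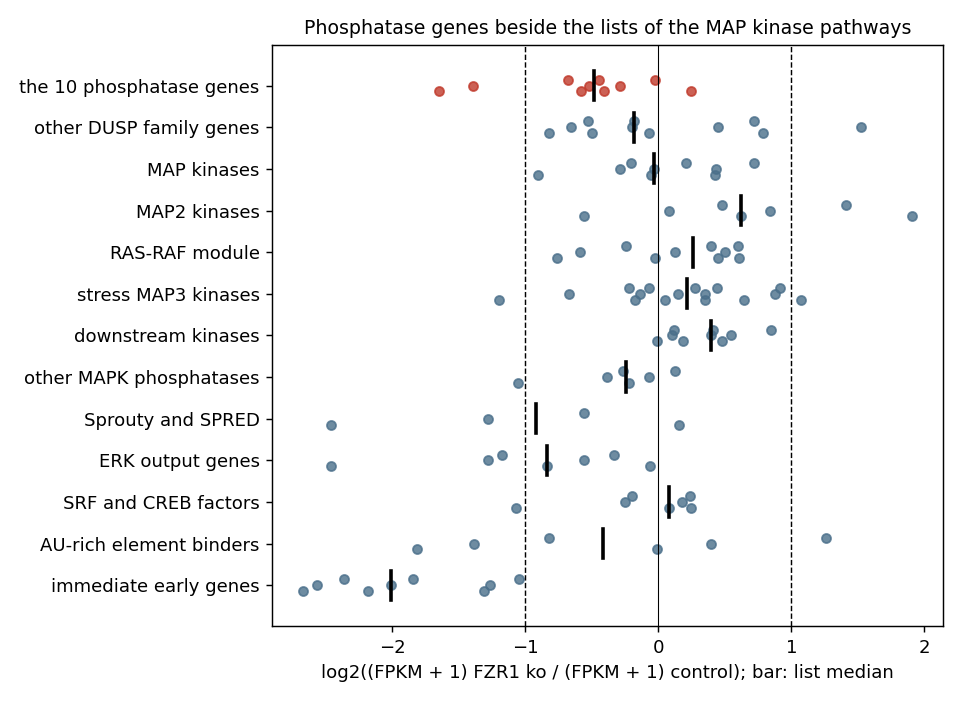
log2 ratio of each gene kept in the lists of the MAP kinase pathways, 1 point per gene, with a black bar at the median of the list and dashed lines at 2-fold. The 10 phosphatase genes have a median of -0.48, between the immediate early genes (-2.01) and ERK output genes (-0.84) on the left and the downstream kinases (0.40) and MAP2 kinases (0.62) on the right.

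The immediate early genes, with which DUSP1 is usually counted, were described beside the nuclear phosphatases. Their list was chosen with earlier results of these data known. Of 11 listed, 9 were kept, and all 9 (FOS, FOSB, FOSL1, JUN, JUNB, EGR1, IER2, IER3 and ATF3) were at least 2-fold lower in FZR1 ko, beside 6.72% of all genes kept, with log2 ratios from -2.68 to -1.05. IER3, the highest, was at 431 and 119 FPKM (-1.85). None of the 4 nuclear phosphatase genes was at least 2-fold lower, beside 6.72% of all genes kept, and the group is too small to set against that share. Factors known at the promoters of inducible phosphatase genes were 3 lower and 4 higher of 7, beside 50.3% and 49.6% of all genes kept, with a median of 0.08. ELK1, the highest, was at 34.5 and 36.6 FPKM (0.08), and ELK4, a partner of SRF, was the 1 gene of the 7 at least 2-fold lower, at 19.6 and 8.79 FPKM (-1.07).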

How the data were processed

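RNAseq of 2 libraries was used, 1 of control and 1 of FZR1 ko cells, both labelled T-47D. The authors sequenced on the BGISEQ-500 platform, and the submitters' processing notes name Trimmomatic 0.36, HISAT2 2.1.0, Bowtie2 2.2.5 and RSEM on hg38. The methods give another version of Bowtie2. The annotation and filters are not given in the sources used here. The authors deposited FPKM per Entrez gene ID, rounded to 2 decimals and summed by gene, so isoforms cannot be separated. Of 24663 rows, 1630 have no value and were left out. Of the other 23033, 22925 (99.5%) matched a symbol in RefSeq of GRCh38.p14, the same build as hg38.

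The log2 ratio was computed with a pseudocount of 1 FPKM, for genes that reached 1 FPKM in either library. A difference of at least 2-fold was counted, and lists were described by counts and medians. No test was made with 1 library per condition. The computation was tested on simulated data. The members and lists were chosen with earlier results of these data known. Named were all members, FZR1, the marker genes, and in each other list the genes at least 2-fold apart and the highest FPKM in either library, with MAPK7, MAP2K2, RPS6KA5, PPP2CA, CCND1, DUSP9, DUSP5P1 and the overlapping or neighbouring genes named after their values were seen. The value of 1 gene of the lists is not reported here. Exons, coding lengths, transcript lengths and GC content came from the canonical GENCODE 44 transcripts. Motifs with letters other than A, C, G, T and N (CArG box, NF-kB site, p53 decamer) are given by name. Alternatives were a pseudocount of 0.1 or 5 FPKM, other filters on low values, centring, scaling to the same sum, thresholds of 1.5-fold and 4-fold, and protein-coding genes only. The software was Python 3.11.15 with matplotlib 3.10.9, numpy 2.4.6 and pandas 2.3.3.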

Additional observations from a re-analysis of the deposited data

How the results depend on the processing

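No paired analysis was possible because the 2 conditions hold 1 library each, with no test, and no replicate could be left out either. The correction for GC content and transcript length, the median of 10 by 10 groups subtracted, was chosen after seeing the data. The number of phosphatase genes at least 2-fold lower, 2, was 1 with a pseudocount of 5 FPKM, where DUSP10 was at -0.82 and DUSP6 at -1.06, and 0 at a 4-fold threshold, which passes fewer genes by construction. Under the other alternatives the count was 2, or 3 at 1.5-fold. Over all genes, 911 lower and 919 higher became 270 and 183 when 5 FPKM was added, 2387 and 2440 at 1.5-fold, 89 and 61 at 4-fold, and 1358 and 1460 with a pseudocount of 0.1 FPKM. In the lists described beside the phosphatase genes together, 99 genes were kept, with 18 at least 2-fold lower, of which 9 were immediate early genes and 2 mRNA decay factors, and 5 higher, beside 6.72% and 6.78% of all genes kept. The 18 lower became 6 at 4-fold, and the 5 higher became 2 when 5 FPKM was added, 3 with at least 1 FPKM in both libraries, 16 at 1.5-fold and 0 at 4-fold. The median of the 10 phosphatase genes and the ratios of the members and DUSP9 kept their signs throughout. A pseudocount or a filter cannot change the sign of a single gene, so only centring, scaling and the GC and length correction could have done so. With the GC and length trend removed the median was -0.45, DUSP4 was at -0.33 in place of -0.03 and DUSP16 at 0.06 in place of 0.25, so the order among small differences depends on that setting. The medians of the short lists moved more. That of the Sprouty and SPRED genes, -0.92, was -1.41 with a pseudocount of 0.1 FPKM, -0.44 with 5 FPKM, -0.56 with at least 1 FPKM in both libraries and -0.30 without the filter on low values. Without that filter, or with the GC and length trend removed, the median of the downstream kinases was 0.19 or 0.23 in place of 0.40, and that of the MAP kinases -0.0029 or -0.09 in place of -0.03. Depth is unknown, so the counting error of DUSP6 and DUSP10, at 3.13 and 2.58 FPKM in FZR1 ko, cannot be given.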

Other observations

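Proteins that bind AU-rich elements, sequences in the mRNA of many immediate early genes including DUSP1 that set how fast it decays, were described as a further group. Of 6 genes, 4 were lower and 2 higher in FZR1 ko, beside 50.3% and 49.6% of all genes kept, with a median log2 ratio of -0.42. At least 2-fold apart were 2 lower and 1 higher, beside 6.72% and 6.78% of all genes kept. ZFP36 (tristetraprolin), which promotes decay of such mRNA and is itself an inducible gene, was at 28.8 FPKM in control against 7.47 FPKM in FZR1 ko (-1.82). Its relative ZFP36L1 was at 65.8 and 24.6 FPKM (-1.38), and ZFP36L2, the highest in control, was at 120.4 and 67.6 FPKM (-0.82). HNRNPD (AUF1) was higher, at 33.0 and 80.4 FPKM (1.26).

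The genes beside the phosphatase genes went both ways. Of the 20 nearest protein-coding genes kept, 1 on each side of each member, 7 were lower in FZR1 ko, beside 50.3% of all genes kept. None of them was at least 2-fold lower and 2 were at least 2-fold higher, beside 6.72% and 6.78% of all genes kept, and the median log2 ratio was 0.27. KIF13B, at 0.15 and 1.05 FPKM, and HHIPL2, at 0.55 and 1.87 FPKM, reached 1 FPKM in FZR1 ko only, and among the 18 others 7 were lower, with a median of 0.24. KITLG and POC1B, which flank DUSP6, were at -0.37 and 0.33. HLX and HHIPL2, 816 and 780 kb from DUSP10, were at -0.95 and 0.89. ERGIC1, next to DUSP1, was at 33.9 FPKM in control against 88.8 FPKM in FZR1 ko (1.36), and POC1A, next to DUSP7, at 4.14 and 10.9 FPKM (1.21).

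The windows before DUSP6 and DUSP10 had the lowest GC content of the 8 members with a RefSeq promoter, 57.2% and 56.4%, and the other 6 ranged from 74.0% to 82.8%, a pattern seen only after the values were known. Among all genes kept with a RefSeq promoter, 5.68% were at least 2-fold lower and 6.19% at least 2-fold higher in FZR1 ko. Of the 3214 with a promoter GC content under 60%, 6.88% were lower and 6.29% higher by that measure, so the directions were nearly balanced there. The shares were 5.48% and 4.90% for the 3835 with 60% to 70%, and 4.75% and 7.59% for the 3305 with 70% or more. Whether promoter composition has a part in the difference of DUSP6 and DUSP10 was not tested.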
